A study of Mus musculus with 10 samples.

Results

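House dust mite (HDM) extract is an allergen preparation that elicits airway inflammation in mice, and the transcriptional response to it is described here for inducible mast cells of the lower airway. In the usual naming of these cells, B7 is integrin β7, and the β7-high (B7hi) population is the inducible one, set against a β7-low (B7low) constitutive population. Of the 10 RNA-seq libraries, 5 are of sorted B7hi cells and were chosen by their labels alone: 3 from HDM-challenged mice and 2 from saline-challenged mice. The other 5, B7low cells in the same numbers, served to estimate the spread between libraries and to test whether a difference belonged to B7hi cells. All mice were wild-type C57BL/6 animals of 5 to 7 weeks. They received 3 µg HDM extract in 20 µL saline, or 20 µL saline alone, into the nose under isoflurane, 2 times a week for 3 weeks. The labels do not say whether the libraries of a group came from separate animals or from pooled animals. The p-values therefore cover the variation from library to library, part of which may be technical.

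Mast cells are tissue-resident granulocytes that store proteases, histamine, serotonin and heparin-like proteoglycans in granules and release them when the high-affinity IgE receptor is crosslinked. In mice, constitutive mast cells sit in connective tissue and carry tryptases, chymases and carboxypeptidase A3, whereas inducible mast cells arise from bone marrow progenitors that enter the lung during allergic inflammation and are known for the chymases Mcpt1 and Mcpt2 and the integrin αEβ7. The recruited progenitors use integrin α4β7 to enter the lung, and TGF-β is known to raise αE and Mcpt1 in cultured mast cells.

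Levels are in CPM, the counts of a gene scaled to a common library total by TMM, given in the order of the library numbers (HDM 1, 2, 3 and saline 1, 2). CPM is not per length, so levels are compared between groups and not between genes. Differences are fitted log2 fold changes, HDM over saline, ± an approximate SE. A lower level in bulk RNA cannot tell fewer cells of a type from less RNA per cell. Total counts ran from 525983 to 1725818 over the 10 libraries, and B7hi HDM 2 had the fewest. That library also stood apart from the other 4 B7hi libraries on the first principal component (75.6, against −21.2 to −17.0) and held 12133 CPM of the nuclear noncoding RNA Kcnq1ot1, against 806 to 1537 CPM in those 4. The ribosomal RNA precursor Rn45s took 22.7%, 26.3% and 23.6% of counts with HDM, against 19.7% and 21.6% with saline. The defining mast cell genes were abundant in every B7hi library. The stem cell factor receptor Kit stood at 5488, 3194 and 2696 CPM with HDM, against 3968 and 2693 CPM with saline, and the IgE receptor β chain Ms4a2 at 840.0, 926 and 819.8 CPM with HDM, against 900.1 and 766 CPM with saline. Defining markers of macrophages (C1qa, C1qb, C1qc), neutrophils (S100a8, S100a9) and eosinophils (Prg2, Epx) were at 0 counts in all 5 libraries, as were 6 of 15 macrophage, 4 of 12 neutrophil and 6 of 8 eosinophil markers in all. The summed levels of these 3 lists were not 0. Macrophage markers summed to 21.5 to 30.6 CPM with HDM and to 4.53 and 19.8 CPM with saline, neutrophil markers to 15.1 to 54.8 CPM with HDM and to 28.0 and 21.4 CPM with saline, and eosinophil markers to 8.13 to 60.7 CPM with HDM and to 27.2 and 27.7 CPM with saline. Epithelial markers summed to 80.6 to 144.8 CPM with HDM and to 193 and 141 CPM with saline, endothelial ones to 121 to 175 CPM with HDM and to 153 and 131 CPM with saline, and fibroblast ones to 47.5 to 140.9 CPM with HDM and to 110.3 and 86.1 CPM with saline. Most of each sum came, in this order, from Cdh1 (67.5 to 177 CPM), Pecam1 (108 to 150 CPM) and Pdgfrb (46.9 to 112 CPM). The part of these cells in the results was not tested. The basophil protease Mcpt8 stood at 821, 1288 and 1552 CPM with HDM, against 837 and 691 CPM with saline, and 8 of 8 basophil markers were detected, with sums of 4086 to 6073 CPM with HDM and 4138 to 5984 CPM with saline. Besides Mcpt8, much of each sum came from Cd69 (1075 to 3184 CPM), Gata2 (742 to 1194 CPM) and Ifitm1 (681 to 1242 CPM). Gata2 is also a mast cell regulator. The basophil protease Prss34 was at 2.27 to 48.1 CPM.

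The comparison asks what repeated HDM challenge changed in inducible mast cells. With all 10 libraries in 1 fit and 10533 genes tested, 1 gene passed an edgeR adjusted p of 0.05 as higher with HDM (0.00949% of genes) and 0 passed as lower (0%). At an unadjusted p under 0.05, 292 genes were higher (2.77%) and 143 lower (1.36%). Without saline library 1 these counts were 141 and 65. The CPM ranges of the 3 HDM and 2 saline libraries did not overlap for 1077 higher (10.2%) and 1098 lower genes (10.4%). With 3 against 2 libraries, chance ordering alone separates a gene in either direction with a probability of 0.2. Higher and lower separated genes combined lie near that share. The unadjusted calls of the fit to all 10 libraries, higher and lower combined, stay under the share of 0.05 that chance alone would give. DESeq2 called 53 higher and 1 lower, and limma-voom 10 higher and 1 lower. With edgeR, 2 genes were higher without HDM library 1, 5 without HDM library 2, 10 (and 1 lower, Anxa2) without HDM library 3, 7 without saline library 2 and 0 without B7low HDM library 2. The percentages over all genes are the background against which each gene list is set. The direction of small differences depended on the scaling. With the library total alone in place of TMM, the median log2 fold change of all genes moved to −0.14 from 0.02, the unadjusted calls became 189 higher and 336 lower, and the separated ranges 668 higher and 1970 lower.

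Ecm1, which encodes the secreted glycoprotein extracellular matrix protein 1, was the gene that passed. It stood at 82.5, 60.7 and 97.9 CPM with HDM, against 13.6 and 12.01 CPM with saline, and every HDM library lay well above both saline libraries. Its mean was 80.4 ± 18.7 CPM with HDM (SD, n = 3) and 12.8 ± 1.13 CPM with saline (SD, n = 2). Ecm1 rose by 2.67 ± 0.38 on the log2 scale (edgeR adjusted p = 0.026), and the adjusted p over the alternatives ran from 1.2e-07 to 0.22. The adjusted p was 0.22 without saline library 1, 0.099 without saline library 2, 0.079 without the B7low HDM library 2 and 0.055 when the 5 B7hi libraries were fitted alone. The log2 fold change stayed between 2.51 and 2.80 over all alternatives. In B7low cells Ecm1 stood at 126 ± 19.4 CPM with HDM (SD, n = 3) and 161 ± 76.4 CPM with saline (SD, n = 2). The B7hi libraries thus lay below the B7low means with HDM and with saline. The difference between the HDM effects in B7hi and in B7low was 3.03 ± 0.49 (edgeR adjusted p = 0.054).

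Ecm1 lies on chromosome 3, 95734147 to 95739569 on the minus strand, in GENCODE M21 on GRCm38. The 6 genes next in rank shared an adjusted p of 0.09, and 5 of these 7 genes had an entry in a RefSeq table of promoters on GRCm38.p6 (all but Fam46c and Ly6a). The 250 bases before the RefSeq start are shown for Ecm1, Tph1 and Cd200r4, because each holds the core letters bound by GATA factors, the family that includes the mast cell regulators Gata1 and Gata2. Capitals mark AGATAA (or AGATAG, or TGATAA, or TGATAG) on either strand. The windows, on the minus, minus and plus strand in this order, are chr3:95739570-95739819, chr7:46672538-46672787 and chr16:44820478-44820727.
Ecm1: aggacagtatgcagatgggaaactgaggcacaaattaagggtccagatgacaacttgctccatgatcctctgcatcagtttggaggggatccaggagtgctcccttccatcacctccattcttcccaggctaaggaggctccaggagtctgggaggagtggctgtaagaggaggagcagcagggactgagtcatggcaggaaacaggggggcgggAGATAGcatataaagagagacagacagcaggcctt
Tph1: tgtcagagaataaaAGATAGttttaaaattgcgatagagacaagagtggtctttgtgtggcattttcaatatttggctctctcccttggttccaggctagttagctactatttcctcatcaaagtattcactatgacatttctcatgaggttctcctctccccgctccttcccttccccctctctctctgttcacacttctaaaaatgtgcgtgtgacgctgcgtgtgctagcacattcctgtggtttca
Cd200r4: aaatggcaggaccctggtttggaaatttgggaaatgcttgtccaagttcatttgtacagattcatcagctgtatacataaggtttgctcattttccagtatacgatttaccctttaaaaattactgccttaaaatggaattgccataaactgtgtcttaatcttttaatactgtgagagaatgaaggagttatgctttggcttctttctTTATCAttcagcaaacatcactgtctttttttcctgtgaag
The letters begin 35 bases before the start in Ecm1, 236 bases in Tph1 and 41 bases in Cd200r4, where they are read on the opposite strand. The windows of Lif and Rnf128 do not hold them. In GENCODE M21, Cd200r4 spans 44811733 to 44839150 and Rnf128 spans 139563316 to 139673145, both on the plus strand. The windows of Cd200r4 and Rnf128, set by the RefSeq start, thus lie inside those spans and not before them. The same letters occur in 26.5% of all 32851 promoter windows of this length, against 3 of these 5. The STAT letters TTCNNNGAA occur in 0 of the 5 windows and in 7.02% of all windows. These matches describe sequence and do not show binding.

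The 2 enzymes of serotonin synthesis, Tph1 and Ddc, stood higher in every HDM library. Tph1, the rate-limiting enzyme of serotonin synthesis outside the brain, stood at 943, 585 and 749 CPM with HDM, against 39.3 and 152 CPM with saline, a log2 fold change of 2.97 ± 0.50 (edgeR adjusted p = 0.09). Both saline libraries lay below all HDM libraries, and saline 1 was the lowest. Ddc, the decarboxylase that makes serotonin from the product of Tph1, stood at 71.3, 21.5 and 71.2 CPM with HDM, against 2.27 and 11.5 CPM with saline, with HDM 2 the lowest of the HDM libraries and still above both saline libraries (2.95 ± 0.57, adjusted p = 0.11). Leaving out single libraries moved the adjusted p of Tph1 between 0.0019 (without saline library 2) and 0.35 (without HDM library 1). That of Ddc was 0.048 without saline library 2, 0.027 without HDM library 2, 0.4 without HDM library 1 and 1 without saline library 1. The histidine decarboxylase Hdc, which makes histamine, stood at 2410.1, 1358 and 1143 CPM with HDM, against 2109 and 1100.0 CPM with saline, with overlapping ranges. In B7low cells Tph1 stood at 869 ± 301 CPM with HDM (SD, n = 3) and 962 ± 83.5 CPM with saline (SD, n = 2). The HDM effect on Tph1 was −0.15 ± 0.44 in B7low, and the interaction was 3.12 ± 0.64 (edgeR adjusted p = 0.2).

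**Figure D1:**
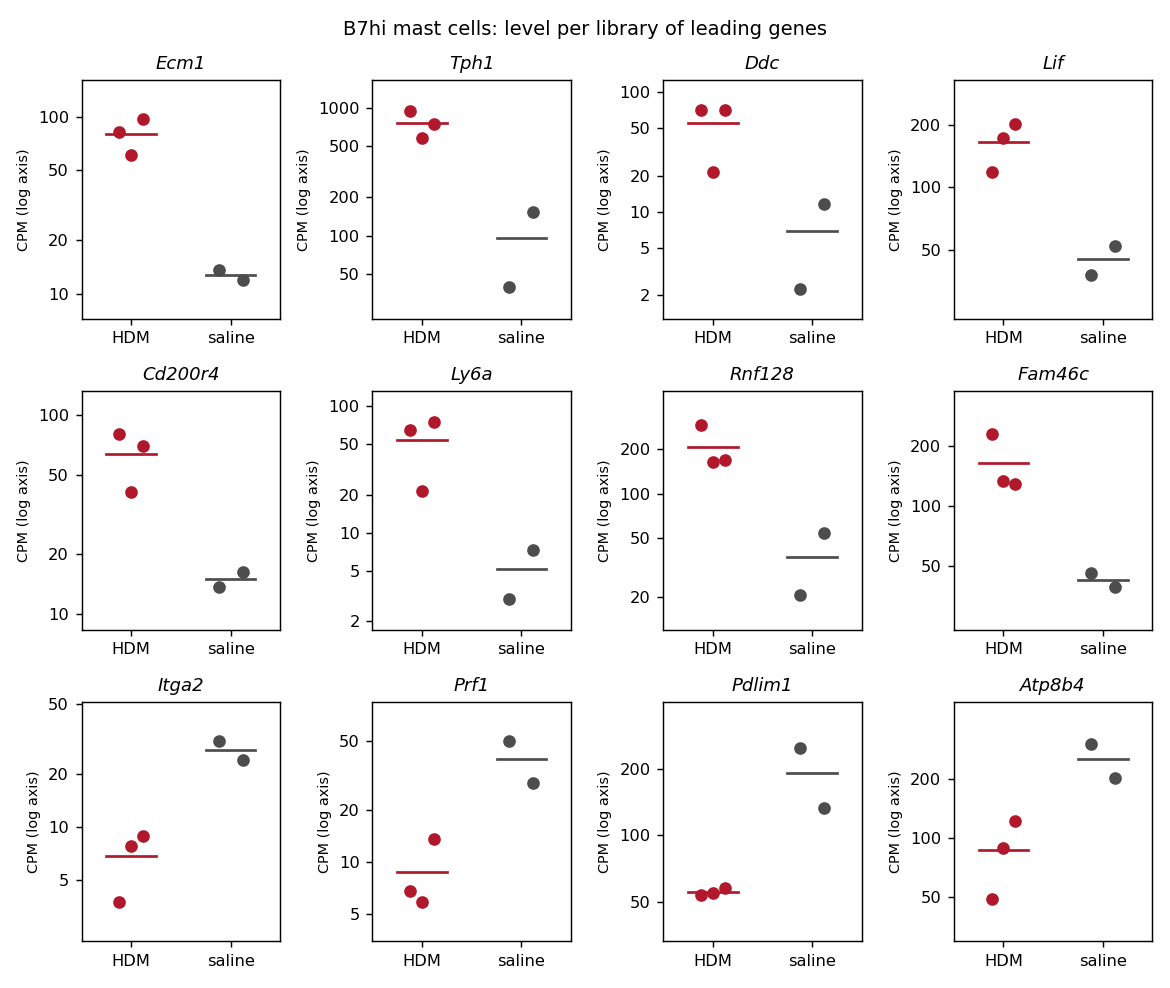
Level of 12 genes in each B7hi library, in CPM on a log axis that differs between panels. Points are libraries and lines are group means, HDM (n = 3) left of saline (n = 2). Ecm1 stands at 60.7 to 97.9 CPM with HDM and at 12.01 and 13.6 CPM with saline, and for Itga2, Prf1, Pdlim1 and Atp8b4 every HDM point lies below both saline points.

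Receptors of the CD200R family were among the highest-ranked genes. Cd200r4, a receptor that pairs with an activating adaptor in mice, stood at 80.6, 41.1 and 69.9 CPM with HDM, against 13.6 and 16.2 CPM with saline (2.12 ± 0.37, edgeR adjusted p = 0.09). Cd200r3, a mast cell and basophil receptor that signals through an activating adaptor in mice, stood at 244, 121 and 118 CPM with HDM, against 31.7 and 57.4 CPM with saline (1.85 ± 0.37, adjusted p = 0.11). Cd200r1, the inhibitory receptor for CD200, stood at 26.3, 15.7 and 32.9 CPM with HDM, against 6.05 and 4.18 CPM with saline (2.35 ± 0.52, adjusted p = 0.17). For all 3 genes each HDM library lay above both saline libraries, although sequences shared within the family may have let reads of one be counted for another. Of 27 tested inhibitory and regulatory receptors, 7 were higher and 0 lower at an unadjusted p under 0.05, and 8 were separated as higher and 5 as lower. The list's median log2 fold change was 0.49, against 0.02 over all genes and −0.07 for the same list in B7low cells. It was 0.18 without saline library 1, 0.22 without HDM library 2, 0.27 without HDM library 1 and 0.32 with the library total alone. Cd300lf, an inhibitory receptor of the CD300 family, was among the 7 at 11.3, 7.83 and 13.7 CPM with HDM, against 0 and 2.61 CPM with saline. The adjusted p of Cd200r4 was 0.027 without HDM library 2 and 1.0 without saline library 1.

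The other genes at adjusted p = 0.09 were of different kinds. Lif, a cytokine of the interleukin-6 family, stood at 118, 174 and 203 CPM with HDM, against 37.8 and 52.2 CPM with saline (1.86 ± 0.32). Fam46c, a noncanonical poly(A) polymerase, stood at 231, 133 and 129 CPM with HDM, against 46.1 and 39.2 CPM with saline (1.96 ± 0.35). Rnf128, the E3 ubiquitin ligase known as GRAIL in T cells, stood at 290.0, 164 and 168 CPM with HDM, against 20.4 and 54.3 CPM with saline (2.46 ± 0.44). Ly6a, which encodes the surface protein Sca-1, stood at 64.4, 21.5 and 74.7 CPM with HDM, against 3.02 and 7.31 CPM with saline (3.35 ± 0.59), with HDM 2 well under the other HDM libraries. In each of these genes the HDM and saline ranges were apart, and saline 1 was the lower of the saline libraries except for Fam46c. Lif and Fam46c were also separated as higher in B7low cells, with log2 fold changes of 0.87 ± 0.33 and 0.85 ± 0.38. Those of Rnf128 and Ly6a in B7low cells were 0.23 ± 0.41 and 0.37 ± 0.45, with overlapping ranges. Without saline library 1, the adjusted p of Lif, Fam46c, Rnf128 and Ly6a was 1.0.

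The general mast cell program stood slightly higher. Of 23 tested core identity genes, 22 had a positive log2 fold change, 7 were higher and 0 lower at an unadjusted p under 0.05, and 10 were separated as higher and 0 as lower. With the library total alone 17 were positive. Their median was 0.40 (0.24 with the library total alone), against 0.02 over all genes and −0.11 for the same genes in B7low cells. Fcer1a, the IgE-binding chain of the high-affinity receptor, stood at 2971, 1339 and 1459 CPM with HDM, against 839 and 661 CPM with saline (1.36 ± 0.35, edgeR adjusted p = 0.33). Il1rl1, the receptor for interleukin-33, stood at 1439, 1112 and 792 CPM with HDM, against 521 and 541 CPM with saline (1.07 ± 0.28, adjusted p = 0.33). The carboxypeptidase Cpa3 was separated by a small margin, at 8224, 6480.2 and 5848 CPM with HDM, against 5673 and 4699 CPM with saline (0.40 ± 0.30, adjusted p = 1). Kit and the progenitor marker Cd34 did not separate, with log2 fold changes of 0.19 ± 0.31 and 0.06 ± 0.28, and both changed sign when HDM library 1 or saline library 2 was left out. Without HDM library 1, 18 of the 23 core genes were positive, with a median of 0.14 and 6 higher, and the median was 0.17 without saline library 2. The wider IgE signalling list held few differences. Of 29 tested genes, 1 was higher, Fcer1a, and 0 lower, with a median of 0.15 that became −0.06 without HDM library 1 and −0.02 with the library total alone. The inhibitory phosphatase Inpp5d in that list stood at 667, 378 and 331 CPM with HDM, against 357 and 295 CPM with saline, where the ranges overlapped. The list had 1 lower without HDM library 1 or saline library 2, and 3 higher without HDM library 3.

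Genes of connective tissue type mast cells, mostly granule proteases and receptors, stood higher too. All 12 tested members of the list had a positive log2 fold change (11 of 12 with the library total alone), 5 were higher and 0 lower at an unadjusted p under 0.05, and 6 were separated as higher. The median was 1.44, against −0.42 for the same genes in B7low cells. Cma1, a chymase of mast cell granules, stood at 6205, 4282 and 4736 CPM with HDM, against 1605 and 1927 CPM with saline (1.52 ± 0.32, edgeR adjusted p = 0.16). The tryptase Tpsb2 stood at 3331, 996 and 1103 CPM with HDM, against 206 and 559 CPM with saline (2.24 ± 0.59, adjusted p = 0.51), with HDM 1 far above the other HDM libraries. The membrane-anchored tryptase Tpsg1 stood at 152, 99.8 and 109 CPM with HDM, against 10.6 and 34.5 CPM with saline (2.38 ± 0.54, adjusted p = 0.24). Adora3, the adenosine A3 receptor, stood at 121, 82.2 and 71.2 CPM with HDM, against 32.5 and 33.4 CPM with saline (1.48 ± 0.30, adjusted p = 0.13). The ranges of these 4 genes were apart in B7hi cells, while B7low cells had log2 fold changes of −0.34, −0.41, −0.30 and −0.63 in the same order. The mean levels of all 4 were higher in B7low than in B7hi cells, with HDM and with saline. Cma1 stood there at 20297 ± 3760 CPM with HDM (SD, n = 3) and 25771 ± 12083 CPM with saline (SD, n = 2). The part of B7low cells in the sorted B7hi libraries was not tested. The chymase Mcpt4 overlapped between groups, at 363, 108 and 241 CPM with HDM, against 239.6 and 90.3 CPM with saline (0.55 ± 0.55), as did Mrgprb2, the receptor for basic secretagogues, at 213, 66.5 and 19.9 CPM with HDM, against 28.7 and 47.5 CPM with saline. Mrgprb1 was near its limit of detection, at 15, 5.87 and 0.685 CPM with HDM, against 9.82 and 1.04 CPM with saline, where a count of 0 would allow up to 5.70 CPM in HDM library 2. The close copies Tpsb2 and Tpsab1, and the Mrgpr genes among themselves, may share reads.

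The proteases that mark inducible mast cells differed more in size and less in their test. Mcpt1 stood at 10238, 3119.8 and 7618 CPM with HDM, against 56.7 and 861 CPM with saline, and Mcpt2 at 10903, 4893 and 7481 CPM with HDM, against 147 and 1758 CPM with saline. Every HDM library lay above both saline libraries for both genes, with saline 1 far under saline 2. The fitted log2 fold changes were 3.93 ± 2.98 (adjusted p = 1) and 3.02 ± 1.72 (adjusted p = 1), so neither passed the test given the spread of the 10 libraries. That spread includes the B7low libraries. There Mcpt1 stood at 1807 ± 2631 CPM with HDM (SD, n = 3) and 1776 ± 2509 CPM with saline (SD, n = 2). Mcpt2 stood there at 3300 ± 3107 CPM with HDM (SD, n = 3) and 1760 ± 2311 CPM with saline (SD, n = 2). The 2 genes are closely related and may share reads. Itgae, the αE chain that pairs with β7, stood at 534, 427 and 278 CPM with HDM, against 71.8 and 172 CPM with saline (1.75 ± 0.90, adjusted p = 1), with ranges apart. Itgb7, the β7 chain for which the populations are named, overlapped at 861, 341 and 688 CPM with HDM, against 681 and 1011 CPM with saline (−0.42 ± 0.34, adjusted p = 1). Itga4, its partner in the homing integrin α4β7, stood lower in every HDM library at 313, 659.6 and 726 CPM with HDM, against 944 and 983 CPM with saline (−0.77 ± 0.35, adjusted p = 1). Of 9 mucosal type genes tested, 6 were positive, and 1 was higher and 1 lower at an unadjusted p under 0.05, against 0 and 0 without HDM library 1, saline library 1 or saline library 2, and 0 and 1 without HDM library 2. In the main fit those genes were Mcpt9 (26 counts over the HDM libraries and 4 over the saline libraries) and Itga4. With the B7hi libraries alone or with limma-voom, 3 were higher and 1 lower. The counts were 2 and 1 with DESeq2 or a replicate block, and 0 and 1 with the library total alone.

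**Figure D2:**
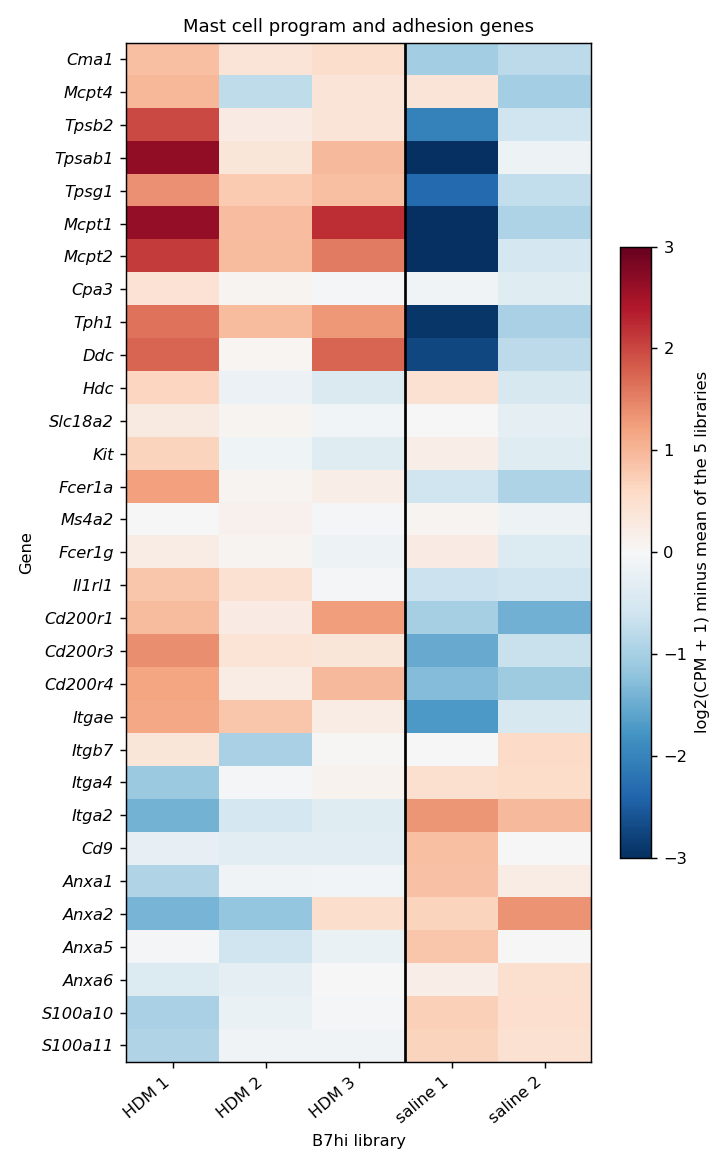
Each cell is log2(CPM + 1) of a gene in 1 B7hi library minus its mean over the 5 B7hi libraries, with HDM libraries left of saline libraries. Cma1, Tpsb2, Tpsg1, Mcpt1, Mcpt2, Cpa3, Tph1, Ddc and the CD200R receptors stand higher in the HDM columns, whereas Mcpt4 and Hdc overlap between groups. Itga2, Itga4, Cd9, Anxa2, Anxa6, S100a10 and S100a11 stand higher in the saline columns.

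Genes for granule proteoglycans followed the amine genes only in part. Of 31 tested genes of both kinds, 4 were higher and 0 lower at an unadjusted p under 0.05, and 9 were separated as higher and 2 as lower, with a median of 0.10 (−0.06 with the library total alone). The chondroitin synthase Chsy1 stood at 240.0, 188 and 138 CPM with HDM, against 28.0 and 95.5 CPM with saline (1.59 ± 0.47, adjusted p = 0.62), and Ndst2, which sulfates heparin in mast cells, at 238, 235 and 173 CPM with HDM, against 133 and 157 CPM with saline (0.57 ± 0.26, adjusted p = 1). Extl3, an enzyme of heparan sulfate chain initiation, stood at 43.8, 66.5 and 30.1 CPM with HDM, against 10.6 and 25.6 CPM with saline. Saline 1 held the lowest value for all 3 genes, and without that library 1 gene of the list was higher. Without HDM library 2 the list had 2 higher and 1 lower, and without HDM library 3 it had 4 higher and 1 lower. The median was 0.22 to 0.27 without HDM library 2, HDM library 3 or saline library 1.

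Lipid mediator genes were led by cyclooxygenase 1. Ptgs1, which encodes it, stood at 70.0, 13.7 and 42.5 CPM with HDM, against 4.53 and 7.31 CPM with saline (2.85 ± 0.63, edgeR adjusted p = 0.17). Hpgds, the prostaglandin D2 synthase of mast cells, stood at 270.0, 174 and 86.3 CPM with HDM, against 74.1 and 73.6 CPM with saline (1.26 ± 0.40), and the thromboxane synthase Tbxas1 at 81.9, 39.1 and 58.9 CPM with HDM, against 15.9 and 21.9 CPM with saline (1.68 ± 0.70). Alox5, the first enzyme of leukotriene synthesis, stood at 1363, 802 and 900.0 CPM with HDM, against 670.3 and 585 CPM with saline (0.70 ± 0.28). The ranges of these 4 genes were apart. They were the 4 of 18 tested genes that were higher at an unadjusted p under 0.05. None was lower, 6 were separated as higher and 1 as lower, and the median was 0.55, against 0.33 in B7low cells. Without HDM library 1 the median was 0.25, without HDM library 2 it was 0.33, and without saline library 2 it was 0.35. With the library total alone 2 were higher and 1 lower, with a median of 0.39. Without HDM library 1, saline library 1 or saline library 2 the count was 2 higher, while 1 gene was lower without HDM library 2 or without B7low HDM library 1.

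Genes listed as downstream of STAT5 and STAT6, factors activated by interleukins 3, 4 and 13, stood higher as a list. Of 19 tested, 15 were positive with a median of 1.02 (13, with a median of 0.85, by the library total alone), against 0.16 in B7low cells. The median was 0.29 with limma-voom and 0.63 without HDM library 1. At an unadjusted p under 0.05, 7 were higher and 0 lower, and 8 were separated as higher and 0 as lower. Socs3, a feedback inhibitor of cytokine receptors, stood at 50.6, 21.5 and 47.3 CPM with HDM, against 2.27 and 5.74 CPM with saline (3.26 ± 0.84, edgeR adjusted p = 0.36). Bcl2, the antiapoptotic protein, stood at 55.6, 48.9 and 34.9 CPM with HDM, against 2.27 and 16.7 CPM with saline (2.2 ± 0.59, adjusted p = 0.39). Osm, which encodes oncostatin M, overlapped, since HDM 1 lay below saline 2, at 388, 749.6 and 866 CPM with HDM, against 162 and 400.4 CPM with saline. Lif also belongs to this list, and which factor or cytokine acted on its members was not tested. Without saline library 1 the list had 4 higher, and 1 member was lower without saline library 2 or without HDM library 1. The survival list as a whole, with 22 tested genes, had 1 higher (Bcl2), 1 lower (Bcl2l11) and a median of −0.05, against 2 and 0 without saline library 1. Bcl2l11, the proapoptotic antagonist BIM, stood at 70.6, 72.4 and 86.3 CPM with HDM, against 219 and 89.3 CPM with saline (−1.0 ± 0.37, adjusted p = 0.94).

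Among cytokines, Il6 and Lif had the lowest p. Il6 stood at 408, 379.7 and 467 CPM with HDM, against 182 and 184 CPM with saline, with tight groups that did not overlap (1.19 ± 0.31, edgeR adjusted p = 0.36). In B7low cells Il6 was the 1 gene that passed the same test, with a log2 fold change of 2.40 ± 0.36. The difference between the B7hi and B7low effects on Il6 was −1.21 ± 0.45 (edgeR adjusted p = 0.5). The type 2 cytokine Il4 stood at 169, 143 and 117 CPM with HDM, against 109 and 107 CPM with saline (0.41 ± 0.30, adjusted p = 1), separated by a narrow margin. Il13 overlapped, at 35.6, 9.79 and 13.7 CPM with HDM, against 26.5 and 18.8 CPM with saline. Ltb, which encodes lymphotoxin β, stood lower in every HDM library at 19.4, 3.91 and 10.96 CPM with HDM, against 37.8 and 28.7 CPM with saline (−1.41 ± 0.52, adjusted p = 0.93). Of 24 tested cytokine and chemokine genes, 5 were higher and 1, Ltb, lower at an unadjusted p under 0.05. The median of 0.06 (−0.11 with the library total alone) compares with 1.06 in B7low cells. It was −0.01 without HDM library 1 and 0.48 and 0.53 without saline library 1 and saline library 2. The list had 3 higher and 0 lower without saline library 1, 3 higher and 1 lower without saline library 2, and 2 lower without B7low HDM library 1. The chemokine Ccl1, a ligand of CCR8, stood at 126, 17.6 and 47.9 CPM with HDM, against 5.29 and 10.96 CPM with saline (2.98 ± 1.06, adjusted p = 1), with HDM 1 by far the highest. Among 33 tested cytokine receptors 3 were higher and 1 lower, with a median of 0.13 (−0.03 with the library total alone). The lower one was Ifngr1, the interferon-γ receptor, at 219, 247 and 329 CPM with HDM, against 438 and 435 CPM with saline (−0.72 ± 0.28), and it was not among the calls without HDM library 1 or saline library 1, which gave 0 lower. The receptor Il10ra, which binds interleukin-10, overlapped at 695, 755 and 372 CPM with HDM, against 278 and 391 CPM with saline.

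Inhibitors of TGF-β signalling were among the TGF-β genes that stood higher. Skil, which encodes the SMAD corepressor SnoN, stood at 863, 709 and 488 CPM with HDM, against 300.0 and 289 CPM with saline (1.22 ± 0.27, edgeR adjusted p = 0.17). Ldlrad4, a membrane protein that keeps SMAD proteins from the receptor, stood at 69.4, 31.3 and 42.5 CPM with HDM, against 9.82 and 15.1 CPM with saline (1.94 ± 0.43, adjusted p = 0.17). Smad7, the inhibitory SMAD, stood at 75, 47.0 and 24.7 CPM with HDM, against 11.3 and 21.4 CPM with saline (1.56 ± 0.53, adjusted p = 0.84), and Bmp7, a ligand of the same superfamily, at 196, 76.3 and 51.4 CPM with HDM, against 30.2 and 35.5 CPM with saline (1.73 ± 0.55, adjusted p = 0.74). Every HDM library lay above both saline libraries for these 4 genes, with HDM 1 the highest each time. The type I receptor Tgfbr1 stood at 232, 123 and 125 CPM with HDM, against 82.4 and 109 CPM with saline (0.75 ± 0.30). Of 26 tested genes of the pathway and its response, 6 were higher and 0 lower at an unadjusted p under 0.05, 8 were separated as higher and 4 as lower, and the median was 0.00. With the library total alone 4 were higher and 2 lower, 7 were separated as higher and 6 as lower, and the median was −0.15. The count of higher genes was 3 without saline library 1 and 2 without HDM library 1, and 1 gene was lower without saline library 2, without HDM library 3 or without any 1 of the B7low HDM libraries.

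Transcription factors of the lineage showed no common direction, with 9 of 19 positive and a median of −0.05. Bhlhe40, a basic helix-loop-helix repressor, stood at 486, 231 and 174 CPM with HDM, against 56.7 and 88.8 CPM with saline (2.03 ± 0.43, edgeR adjusted p = 0.17). Gata1 stood at 64.4, 52.8 and 56.2 CPM with HDM, against 36.3 and 33.4 CPM with saline (0.74 ± 0.38, adjusted p = 1), with ranges apart, whereas the hematopoietic factor Tal1 overlapped at 98.8, 23.5 and 50 CPM with HDM, against 38.5 and 36.5 CPM with saline. The repressor Hes1 stood at 68.1, 33.3 and 69.2 CPM with HDM, against 41.6 and 231 CPM with saline, where saline 2 alone was high, and its log2 fold change of −1.22 ± 0.55 became 0.50 without that library.

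Immediate early and stress genes, which respond quickly to stimulation and to heat or other stress, had 8 higher and 1 lower of 36 tested at an unadjusted p under 0.05, 7 separated as higher and 1 as lower, and a median of 0.51, against −0.10 in B7low cells. The median was 0.22 without saline library 1, 0.33 without HDM library 2, 0.97 without saline library 2 and 0.34 with the library total alone, which gave 5 higher and 1 lower. Dusp4, a phosphatase of MAP kinases, stood at 83.1, 21.5 and 17.1 CPM with HDM, against 3.02 and 8.88 CPM with saline (2.74 ± 0.74, adjusted p = 0.44). The heat shock genes Hspa1a and Hspa1b, which are near-identical copies, stood at 31.9, 11.7 and 1.37 CPM with HDM, against 0 and 2.09 CPM with saline, and at 49.4, 19.6 and 8.90 CPM with HDM, against 0 and 6.26 CPM with saline. Their cochaperone Dnajb1 stood at 1790.1, 1215 and 545 CPM with HDM, against 562 and 573 CPM with saline. HDM 1 was the highest and HDM 3 the lowest HDM library for all 4 genes. The count of higher genes was 2 without HDM library 1, 1 without saline library 1 and 16 without saline library 2, and the count of lower genes was 2 without saline library 1 and 0 without saline library 2, HDM library 2, HDM library 3 or B7low saline library 2.

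Matrix, vascular and metal genes with the lowest p were low in level. Of 18 tested matrix and vascular genes, 4 were higher and 0 lower at an unadjusted p under 0.05, with a median of 0.21 (0.05 with the library total alone). Vegfa, the vascular endothelial growth factor, stood at 17.5, 19.6 and 13.7 CPM with HDM, against 2.27 and 4.18 CPM with saline (2.31 ± 0.72, adjusted p = 0.68), with ranges apart, and Plau, the urokinase-type plasminogen activator, at 34.4, 3.91 and 13.01 CPM with HDM, against 3.78 and 3.65 CPM with saline. Adamts1 had 20 counts over the HDM libraries and 0 over the saline libraries. Serpina3g, a serine protease inhibitor, stood at 26.9, 15.7 and 20.5 CPM with HDM, against 0 and 3.65 CPM with saline. Without saline library 1 the list had 1 higher, and without saline library 2 it had 1 lower. The median was 0.43 without saline library 1 and −0.02 with the B7hi libraries alone. Of 19 metal-handling genes, 3 were higher and 0 lower, with a median of 0.28 that ran from 0.17 without HDM library 1 to 0.54 without HDM library 3. Mt1, which encodes metallothionein 1, stood at 55.0, 21.5 and 35.6 CPM with HDM, against 8.31 and 9.40 CPM with saline (2.11 ± 0.54, adjusted p = 0.31), and Slc30a2, which moves zinc into vesicles, at 24.4, 0 and 10.96 CPM with HDM, against 0 and 0.522 CPM with saline, so that 1 HDM library and 1 saline library both had no count. Slc30a4, another vesicular zinc transporter, overlapped at 78.1, 168 and 43.8 CPM with HDM, against 51.4 and 41.2 CPM with saline. The iron storage gene Ftl1 stood at 3636, 2349 and 1877 CPM with HDM, against 1874 and 1547 CPM with saline (0.62 ± 0.32, adjusted p = 1).

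Ranked by size among genes with separated ranges, an unadjusted p under 0.05 and a mean of at least 20 CPM in the higher group, 182 genes were higher and 114 lower. The 15 largest on the higher side were Cck, Serpina3g, Ly6a, Socs3, Rpl26, Ppfibp2, Ccl1, Tph1, Adamts5, Ddc, Hspa1b, Dtx4, Ptgs1, Pim2 and Mrgpra9, with log2 fold changes between 2.75 and 5.39. Cck, which encodes the peptide cholecystokinin, stood at 87.5, 153 and 74.7 CPM with HDM, against 0 and 4.18 CPM with saline (5.39 ± 1.85, adjusted p = 1). Adamts5, an aggrecan-cleaving protease, stood at 138, 64.6 and 30.8 CPM with HDM, against 4.53 and 14.6 CPM with saline (2.96 ± 0.65, edgeR adjusted p = 0.19). Pim2, a survival kinase, stood at 67.5, 121 and 119.9 CPM with HDM, against 8.31 and 20.9 CPM with saline (2.76 ± 1.01), and Ppfibp2, a liprin, at 41.9, 31.3 and 13.7 CPM with HDM, against 0 and 5.74 CPM with saline (3.12 ± 0.71). Rpl26, a ribosomal protein gene, stood at 57.5, 72.4 and 53.4 CPM with HDM, against 14.4 and 0 CPM with saline, where saline 2 had no count. Dtx4, a Notch pathway ubiquitin ligase, stood at 36.3, 11.7 and 27.4 CPM with HDM, against 0 and 6.26 CPM with saline, and the orphan receptor Mrgpra9 at 63.1, 21.5 and 19.9 CPM with HDM, against 1.51 and 8.35 CPM with saline. HDM 2 was the highest library for Cck, Rpl26 and Pim2.

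**Figure D3:**
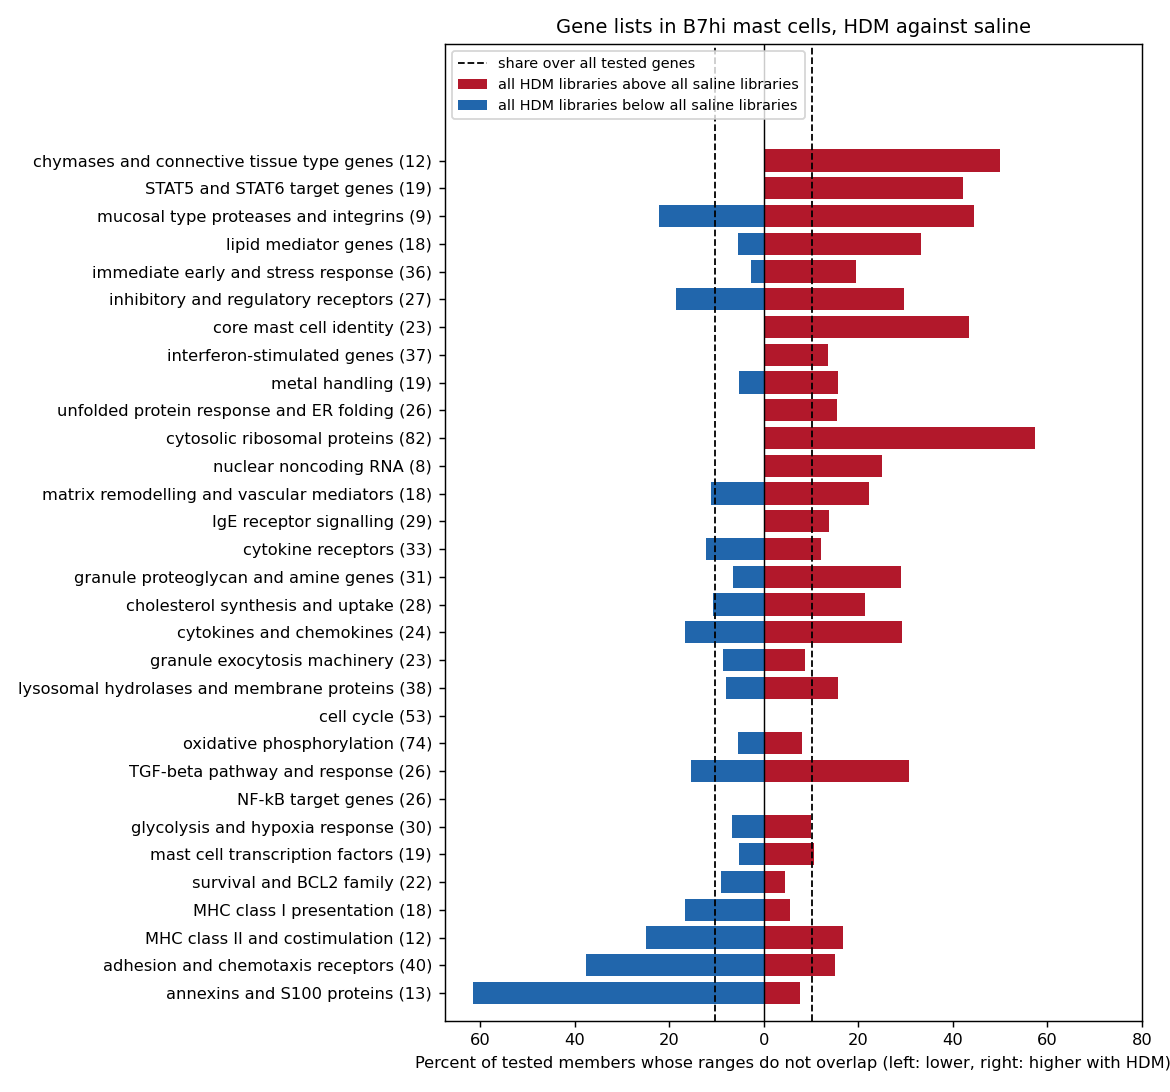
For each gene list, bars give the percent of tested members (number in brackets) whose 3 HDM libraries all lie above (right) or below (left) both saline libraries. Dashed lines mark the share over all 10533 genes, 10.2% higher and 10.4% lower. Bars pass the line most on the higher side for ribosomal, connective tissue type, mucosal and core mast cell genes, and most on the lower side for annexins and S100 proteins and for adhesion receptors.

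Adhesion and chemotaxis receptors differed in both directions, more often toward a lower level. Itga2, the collagen-binding integrin α2, stood at 3.75, 7.83 and 8.90 CPM with HDM, against 31.0 and 24.0 CPM with saline (−2.03 ± 0.54, edgeR adjusted p = 0.36), and Itgam, the integrin αM, at 1.25, 5.87 and 11.6 CPM with HDM, against 21.9 and 21.9 CPM with saline (−1.79 ± 0.79, adjusted p = 1). The tetraspanin Cd9 stood at 209, 199.6 and 196 CPM with HDM, against 468 and 246 CPM with saline (−0.82 ± 0.34, adjusted p = 1), while its relative Cd81 stood higher at 633, 458 and 431 CPM with HDM, against 282 and 271 CPM with saline (0.88 ± 0.30, adjusted p = 0.87). All HDM libraries lay below both saline libraries for Itga2, Itgam and Cd9, and above both for Cd81. Of 40 tested adhesion and chemotaxis receptors, 30 had a negative log2 fold change, 4 were higher and 5 lower at an unadjusted p under 0.05, and 6 were separated as higher and 15 as lower. The median was −0.44, against 0.41 in B7low cells. With the library total alone the counts were 1 higher and 9 lower and the median −0.59. The counts were 2 higher and 3 lower without HDM library 1, 2 higher and 4 lower without HDM library 2, 4 higher and 8 lower without HDM library 3, 1 higher and 4 lower without saline library 1, 3 higher and 3 lower without saline library 2, and 1 higher without B7low HDM library 1.

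Annexins and S100 proteins, calcium-binding proteins of membranes and the cell cortex, stood lower more uniformly. Of 13 tested, 11 were negative with a median of −0.74, against 0.20 in B7low cells. At an unadjusted p under 0.05, 5 were lower and 0 higher, and 8 were separated as lower and 1 as higher. Anxa2 stood at 59.4, 70.5 and 227 CPM with HDM, against 254 and 407 CPM with saline (−1.45 ± 0.52, adjusted p = 0.94), with HDM 3 just under saline 1. S100a10, which forms a complex with annexin A2, stood at 112, 194 and 213 CPM with HDM, against 363 and 316 CPM with saline (−0.98 ± 0.37, adjusted p = 0.97). S100a11 stood at 27.5, 48.9 and 48.6 CPM with HDM, against 84.6 and 72.0 CPM with saline (−0.93 ± 0.37), and Anxa6 at 214, 231 and 284 CPM with HDM, against 327 and 398 CPM with saline (−0.58 ± 0.24). The count of lower genes was 2 without HDM library 1, 3 without HDM library 2 and 2 without saline library 1, where the median was −0.43.

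Perforin led the differences on the lower side. The 15 largest were Prf1, Itga2, Sema3c, Ms4a4b, St7, Robo1, Itfg3, Zfp619, Itgam, Pdlim1, Mpp4, Cobll1, Cul7, Gcnt2 and Atp8b4, with log2 fold changes between −2.09 and −1.54. Prf1, which encodes perforin, stood at 6.88, 5.87 and 13.7 CPM with HDM, against 50.6 and 28.7 CPM with saline (−2.09 ± 0.60, adjusted p = 0.48). Pdlim1, a cytoskeletal PDZ and LIM protein, stood at 53.8, 54.8 and 57.5 CPM with HDM, against 249 and 133 CPM with saline (−1.78 ± 0.47, adjusted p = 0.38), with the 3 HDM libraries within a few CPM of each other. Atp8b4, a phospholipid-transporting ATPase, stood at 48.8, 88.1 and 122 CPM with HDM, against 299 and 202 CPM with saline (−1.54 ± 0.43, adjusted p = 0.48). Robo1, a receptor of SLIT ligands, stood at 9.38, 19.6 and 13.7 CPM with HDM, against 53.7 and 42.3 CPM with saline, and the semaphorin Sema3c at 6.88, 13.7 and 17.8 CPM with HDM, against 61.2 and 37.6 CPM with saline. The remaining genes of this group were ordered in the same way, since separated ranges were a condition for entering it. Ms4a4b, a membrane protein of T cells, stood at 3.13, 9.79 and 6.16 CPM with HDM, against 15.1 and 30.8 CPM with saline, and Gcnt2, which branches glycan chains, at 12.5, 25.4 and 20.5 CPM with HDM, against 59.7 and 53.3 CPM with saline. The 11 markers of natural killer and innate lymphoid cells, which include Prf1, summed to 229 to 542 CPM with HDM and to 826 and 681 CPM with saline. Most of that sum was the granule protein Nkg7, at 139, 245 and 353 CPM with HDM, against 521 and 448 CPM with saline. The 12 T cell markers summed to 28.1 to 189.7 CPM with HDM and to 58.9 and 243 CPM with saline, and Cd5 was at 0 in all 5 libraries. Basophil markers had no common direction: Itga2 is 1 of those 8 and the basophil protease Prss34 stood at 48.1, 11.7 and 25.3 CPM with HDM, against 2.27 and 8.35 CPM with saline. The part of such cells in the lower level of Prf1, Itga2, Itgam and Ltb was not tested.

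MHC class II genes had no common shift. Of 12 tested genes with costimulatory ligands, 3 were positive, 1 was higher (Cd86) and 0 lower at an unadjusted p under 0.05, and 2 were separated as higher and 3 as lower. The median was −0.33, which became 0.07 without HDM library 1 and 0.97 without saline library 2. The same genes had a median of 2.00 in B7low cells. H2-DMa, which loads peptides onto class II, stood at 13.8, 27.4 and 37.0 CPM with HDM, against 53.7 and 39.2 CPM with saline (−0.84 ± 0.45, adjusted p = 1), and H2-Ob, its inhibitor's β chain, at 19.4, 21.5 and 30.1 CPM with HDM, against 38.5 and 48.6 CPM with saline (−0.87 ± 0.49, adjusted p = 1). Both stood lower in every HDM library. The costimulatory ligand Cd86 overlapped at 77.5, 13.7 and 60.3 CPM with HDM, against 16.6 and 25.1 CPM with saline, and the PD-1 ligand Pdcd1lg2 was apart at 155, 109.6 and 78.8 CPM with HDM, against 58.9 and 52.7 CPM with saline (1.04 ± 0.51, adjusted p = 1). The 8 B cell markers summed to 6.25 to 23.5 CPM with HDM and to 12.8 and 75.7 CPM with saline in B7hi cells, against 116 to 706 CPM with HDM and 65.2 and 97.9 CPM with saline in B7low cells. Their part in the class II values was not tested.

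Most ribosomal protein genes stood slightly higher. Of 82 tested, 76 had a positive log2 fold change, 47 were separated as higher and 0 as lower, and the median was 0.26, with 1 gene, Rpl26, higher at an unadjusted p under 0.05 (2 genes without saline library 2 and 3 without B7low HDM library 2). With the library total alone the median was 0.10, with 18 separated as higher and 3 as lower. In B7low cells the median of the same genes was 0.30. Interferon-stimulated genes had 30 of 37 positive with a median of 0.35, which became −0.08 without HDM library 3, and the unfolded protein response genes 22 of 26 with a median of 0.28 (0.10 without HDM library 3 and 0.42 without HDM library 2). Their counts at an unadjusted p under 0.05 were 1 higher and 0 lower each, with 0 to 4 and 0 to 2 higher when single libraries were left out. Oxidative phosphorylation (74 tested, median 0.01), lysosomal genes (38, 0.05), granule exocytosis genes (23, 0.06), glycolysis (30, −0.02), cholesterol synthesis (28, 0.08), MHC class I presentation (18, −0.12) and NF-κB target genes (26, 0.00) stayed near the median of all genes. Of the 26 NF-κB genes, 0 were separated in either direction. Cell cycle genes had 0 of 53 separated, and their median of 0.04 was −0.71 without HDM library 3 and 1.05 without saline library 2. The proliferation marker Mki67 stood at 25, 45.0 and 116 CPM with HDM, against 46.1 and 83.5 CPM with saline.

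Whether a difference belonged to B7hi cells was tested by the interaction in the same fit. No gene passed an edgeR adjusted p of 0.05 (0%), while 396 genes (3.76%) were more positive in B7hi and 505 (4.79%) more negative at an unadjusted p under 0.05. DESeq2 called 41 genes and limma-voom 0. Ecm1 and Cd9 both had the lowest edgeR adjusted p, 0.054. Cd9 stood at 141 ± 53.3 CPM with HDM (SD, n = 3) and 24.6 ± 10.1 CPM with saline (SD, n = 2) in B7low cells, where the HDM libraries lay above both saline libraries, so that HDM went with a lower level in B7hi and a higher one in B7low. The interaction for Cd9 was −3.32 ± 0.55. In the B7low libraries, B cell markers summed to 116 to 706 CPM with HDM and to 65.2 and 97.9 CPM with saline. Endothelial markers there summed to 112 to 645 CPM with HDM and to 59.4 and 179 CPM with saline. The part of such cells in the differences between B7hi and B7low was not tested. In the adhesion list 1 gene was more positive and 8 more negative in B7hi at an unadjusted p under 0.05, and in the annexin and S100 list 0 and 5. In the connective tissue type list 5 were more positive and 0 more negative, in the core list 5 and 0, and in the immediate early list 9 and 2. In the list of cytokines 1 was more positive and 6 more negative.

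**Figure D4:**
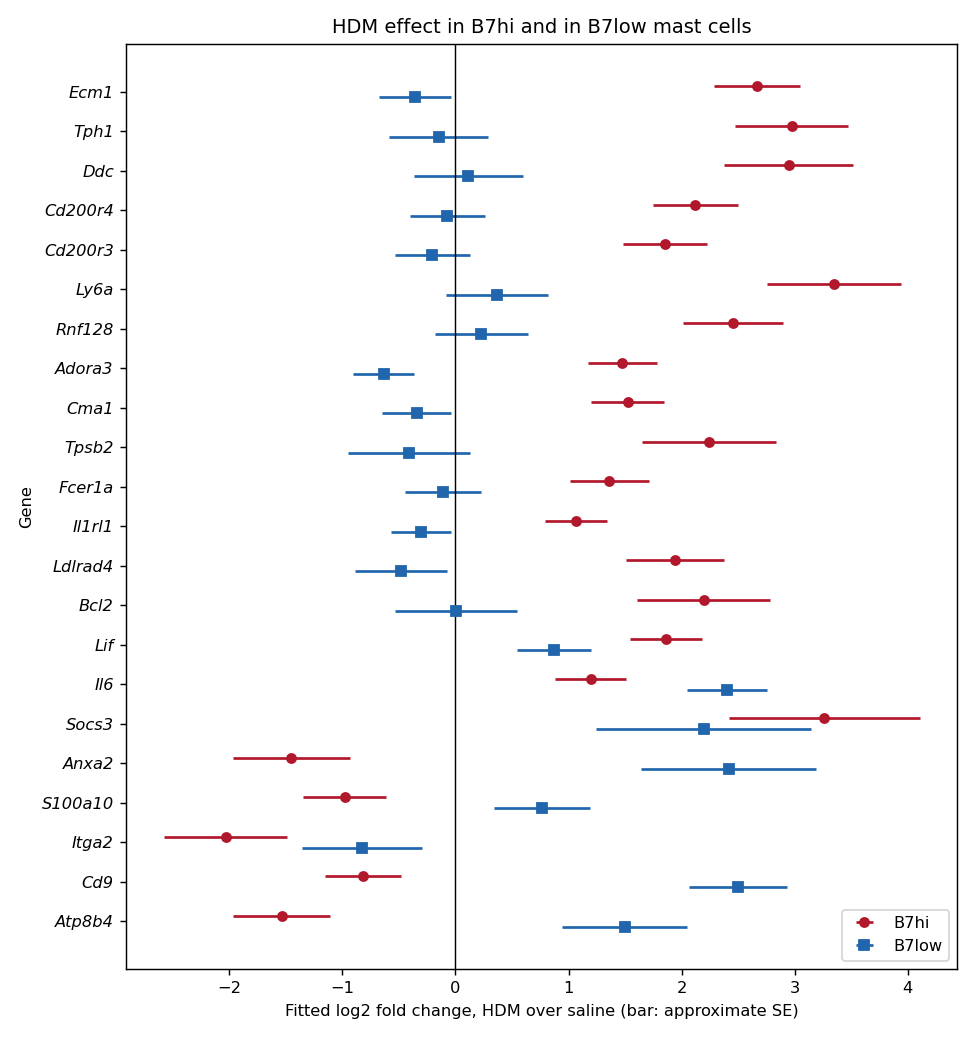
Fitted log2 fold change, HDM over saline, with its approximate SE as bars, in B7hi (circles, n = 3 HDM and 2 saline) and B7low mast cells (squares, n = 3 and 2). Ecm1, Tph1, Adora3 and Cma1 lie on the positive side in B7hi and under 0 in B7low, while Cd9, Anxa2 and Atp8b4 lie on the negative side in B7hi and on the positive side in B7low, and Lif, Il6 and Socs3 are positive in both.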

How the data were processed

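Lower airway mast cells were sorted by flow cytometry into lysis buffer, and poly(A)+ RNA was amplified with SmartSeq2 and sequenced as paired reads of 25 nt, per the labels' protocols. The deposited table holds raw counts, whole numbers for 22815 gene symbols, with a column for each library. TopHat2 2.0.10, Cufflinks 2.2.1, DESeq2 and the build mm10 appear in the submitters' processing notes, which give no roles. How reads were counted, and whether by strand, is not given in the sources used here, so reads of overlapping, antisense or closely related genes may be shared.

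Genes were kept by filterByExpr over the 4 groups (10533 genes, 98.2% to 99.5% of counts per library). After TMM scaling, a robust quasi-likelihood model was fitted in edgeR 4.0.16 under R 4.3.3 with 1 mean per group, all 10 libraries and no block, and each contrast was tested two-sided with Benjamini-Hochberg adjustment over all genes at 0.05. The common biological coefficient of variation was 0.359. The SE was approximated as the absolute log2 fold change divided by √F. With 3 against 2 libraries an exact permutation test cannot go under 0.2, so none was used. A count of 0 allows up to 1.74 to 5.70 CPM (3 counts over the library total), which covers counting error only. Within groups, pairs of B7hi libraries differed by 6.54 to 11.0 chi-square per degree of freedom over genes with at least 10 counts, more than sampling noise. Each library was counted as 1 replicate, although this statistic cannot tell separate animals from technical variation. The fit was checked on simulated data.

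The libraries, gene lists and rule for named genes were chosen with earlier results of these data known. Named are the genes past the threshold, up to 15 each way with the largest log2 fold change among genes with separated ranges, an unadjusted p under 0.05, at least 20 CPM in the higher group and no model or clone symbol, at most 4 genes of lowest p per described list, and a set kept whatever its values (Itgb7, Itgae, Itga4, Mcpt1, Mcpt2, Mcpt4, Cma1, Tpsb2, Cpa3, Kit, Fcer1a, Mrgprb1, Mrgprb2, Il1rl1, Il6, Il13, Il4, Cd34 and Mki67). Genes at an adjusted p of 0.09, Hdc, Ms4a2, Mcpt8, Prss34 and Nkg7 were added after their values were seen. So were the markers given for their share of a summed level. A gene that the rule covers is not reported here. Positions come from GENCODE M21 on GRCm38, and promoter sequences from RefSeq. Alternatives were DESeq2 size factors, library totals with and without Rn45s, DESeq2 1.42.0, limma-voom (limma 3.58.1), other count filters, the B7hi libraries alone, a replicate block, and leaving out each library.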

Additional observations from a re-analysis of the deposited data

Results flagged for a closer look

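Of the genes named here, 13 had ranges of HDM and saline libraries that did not overlap in B7hi and did not overlap in the opposite direction in B7low. The share of all tested genes with such opposite ranges was not counted. In B7hi alone, 10.2% of all genes were separated as higher and 10.4% as lower, and some genes were named because they separated there. The 13 are thus a description without a background. Values are interactions in edgeR, log2 fold change in B7hi less log2 fold change in B7low. More positive in B7hi were Adora3 (2.11 ± 0.40, adjusted p = 0.15), Il1rl1 (1.37 ± 0.38, adjusted p = 0.28), Ldlrad4 (2.42 ± 0.59, adjusted p = 0.22), Ppfibp2 (3.69 ± 0.89, adjusted p = 0.22), Mcpt9 (3.81 ± 1.53, adjusted p = 0.52) and Mrgpra4 (3.54 ± 0.91, adjusted p = 0.23). Mcpt9 and Mrgpra4 rest on few B7hi counts, 26 and 18 with HDM and 4 and 2 with saline.

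More negative in B7hi were Cd9 (−3.32 ± 0.55, adjusted p = 0.054), Anxa2 (−3.87 ± 0.93, adjusted p = 0.24), Cul7 (−3.81 ± 1.04, adjusted p = 0.28), Atp8b4 (−3.03 ± 0.70, adjusted p = 0.22), H2-DMa (−3.02 ± 0.74, adjusted p = 0.22), H2-Ob (−3.2 ± 0.78, adjusted p = 0.22) and Ltb (−2.55 ± 0.80, adjusted p = 0.4). None of the 13 passed an adjusted p of 0.05 in that test. The part of B cells and endothelial cells, whose markers were present in the B7low libraries, was not tested. In B7low cells Anxa2 stood at 56.0 ± 19.4 CPM with HDM (SD, n = 3) and 10.1 ± 6.93 CPM with saline (SD, n = 2), Atp8b4 at 55.0 ± 31.2 CPM with HDM (SD, n = 3) and 19.6 ± 5.43 CPM with saline (SD, n = 2), Adora3 at 203 ± 27.8 CPM with HDM (SD, n = 3) and 314 ± 49.8 CPM with saline (SD, n = 2) and Il1rl1 at 1768 ± 91.4 CPM with HDM (SD, n = 3) and 2186 ± 299 CPM with saline (SD, n = 2).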

How the results depend on the processing

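The counts of genes past an adjusted p of 0.05 (1 higher, 0 lower and 0 for the interaction) depended on the tool and filter, and the cause was not tested. DESeq2 called 53 higher, 1 lower and 41 for the interaction, limma-voom 10 higher and 1 lower, and edgeR with no count filter 75, 14 and 143. The interaction count was 2 with the library total alone and 3 with at least 5 CPM in 2 libraries. The B7hi libraries alone gave 0 higher. Without both B7hi HDM 2 and B7low saline 2 the counts were 5 higher and 1 for the interaction. Leaving out 1 library at a time gave 0 to 10 higher, 0 to 1 lower and 0 to 3 for the interaction. The higher count was 10 without B7hi HDM 3, 7 without B7hi saline 2, 5 without B7hi HDM 2, 2 without B7hi HDM 1 and 0 without B7low HDM 2. With fewer libraries to separate, leaving out a B7hi library gave 1772 to 2457 higher and 1815 to 2510 lower genes with separated ranges.

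Of 108 named genes, 102 kept their direction under every alternative. Many of the 108 were named because their ranges were separated. A gene with separated ranges keeps its order when a library is left out. The count of 102 was thus largely fixed by the choice of genes and does not measure robustness. For the other 6, leaving out 1 library at a time gave log2 fold changes of −0.28 to 0.28 for Cd34, −1.98 to 0.50 for Hes1, −0.89 to 0.13 for Il13, −0.17 to 0.48 for Kit, −0.92 to 0.44 for Mki67 and −1.14 to 2.73 for Mrgprb1. Negative values came without B7hi HDM 1 or saline 2 for Cd34 (−0.28 and −0.078), Kit (−0.17 and −0.059) and Mrgprb1 (−1.14 and −0.37). Positive values came without saline 2 for Hes1 (0.50), without saline 1, HDM 2 or HDM 3 for Il13 (0.12, 0.13 and 0.12), and without saline 2, HDM 1 or HDM 2 for Mki67 (0.44, 0.36 and 0.084). Cd34 was −0.11 with the library total alone and −0.024 with limma-voom, and Il13 and Mki67 were 0.13 and 0.082 without both B7hi HDM 2 and B7low saline 2.

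The labels give replicate numbers but no pairing. B7hi deviations correlated at r = 0.10 for number 1 and −0.10 for number 2, and with 2 saline libraries, whose deviations mirror each other, such values cannot settle it, so no pairing was assumed. A replicate block gave 6 higher, 0 lower and 0 for the interaction. Depth limits low genes, since a count of 0 in B7hi HDM 2 allows up to 5.70 CPM.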
